A study of Mus musculus with 12 samples.

Results

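The miRNAs miR-192-5p and miR-194-5p (mmu-miR-192-5p and mmu-miR-194-5p in the array files) were followed over 12 mouse hearts on a 1-colour miRNA array. They were taken by name as 2 of the 1881 miRNAs on the array. Each array held the RNA of 1 heart muscle sample from a male C57BL6/J mouse aged 5 months, with 3 mice in each of 4 groups. Control mice (C) received no drug, and control mice treated with pargyline (C + P) received 50 mg/kg of this monoamine oxidase (MAO) inhibitor per day for 12 weeks. Diabetic mice (D) were given streptozotocin, a toxin of the pancreatic beta cells, at 50 mg/kg per day on 5 days, and diabetic mice treated with pargyline (D + P) received both. The diabetes is therefore that of a chemical loss of beta cells, and whole heart tissue holds more than cardiomyocytes.

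MiRNAs are short RNAs that guide the silencing complex to messenger RNAs, mostly through pairing of their seed, bases 2 to 8. The miR-192 and miR-194 hairpins are made from a common primary transcript and are abundant in liver, intestine and kidney. In the kidney of diabetic mice, miR-192 is known for its link to transforming growth factor beta signaling and to collagen expression, and miR-194 is known as an epithelial miRNA of the gut and liver. Neither belongs to the miRNAs known for heart muscle, so detection is given before any difference.

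The sequences are shown because they decide what the array can tell apart. They are those of RefSeq (build GRCm38.p6) and run 5′ to 3′, with the seed in capitals. MiR-215-5p is included since it is the relative of miR-192-5p made at the other locus.
miR-192-5p: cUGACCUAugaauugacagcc
miR-215-5p: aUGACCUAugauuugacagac
miR-194-5p: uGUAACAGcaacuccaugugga
MiR-192-5p lies at chr19:6264857-6264877 and miR-215-5p at chr1:185313610-185313630, both on the plus strand. They share the seed and 18 of 21 bases, and with positions counted from the 5′ end of miR-192-5p the differences are C1A, A12U and C20A. No other miRNA of the array that could be matched to the sequence table has the seed UGACCUA. MiR-194-5p is encoded at both loci with the same bases, at chr19:6264658-6264679 and chr1:185313325-185313346 on the plus strand, and the array cannot tell which locus made it. No other matched miRNA of the array has its seed, GUAACAG. Of the 1881 miRNAs on the array, 1608 were matched to the table.

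The 3 hairpins that encode both miRNAs are shown with the measured 5p arm in capitals.
Mir194-2: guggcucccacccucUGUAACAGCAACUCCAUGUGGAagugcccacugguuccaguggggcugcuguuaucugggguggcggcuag
Mir192: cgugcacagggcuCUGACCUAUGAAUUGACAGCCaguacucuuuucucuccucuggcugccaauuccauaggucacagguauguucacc
Mir194-1: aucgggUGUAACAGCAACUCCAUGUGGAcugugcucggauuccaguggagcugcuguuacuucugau
Mir194-2 (chr19:6264643-6264728) and Mir192 (chr19:6264844-6264932) are separated by 115 bases and lie inside no other annotated gene, between Atg2a and Gm14963. Mir194-1 (chr1:185313319-185313385) and Mir215 (chr1:185313581-185313692) are separated by 195 bases and lie within the span of Iars2, which encodes the mitochondrial isoleucyl-tRNA synthetase. The other arms of these hairpins differ more between loci, and the 3p arms of Mir194-1 and Mir194-2 differ at 4 of 22 bases.

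Both miRNAs were detected on the same 8 of 12 arrays. They were detected in 3 of 3 C + P, 3 of 3 D and 2 of 3 D + P hearts, and in 0 of 3 C hearts. The remaining heart without detection was D + P replicate 1. The scanner software writes an undetected miRNA as 0.1. On the 8 arrays, the signal of miR-192-5p was 3.00 to 7.09 times its deposited error and that of miR-194-5p was 3.06 to 6.69 times. Over all 12 arrays, no detected value of any miRNA, 2305 in all, had a ratio below 3.00, and the lowest of them was that of miR-192-5p in C + P replicate 1.

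On the scale of the scanner, in arbitrary units, miR-192-5p gave 2.80, 4.00 and 11.5 in the C + P hearts (replicates 1, 2 and 3) and 5.07, 4.89 and 4.55 in the D hearts. In D + P replicates 2 and 3 it gave 3.14 and 3.23. The D values lay closely together and above both measured D + P values, while the C + P values spanned all of them. MiR-194-5p gave 4.40, 3.67 and 10.7 in the C + P hearts, and 5.20, 4.62 and 3.58 in the D hearts. In D + P replicates 2 and 3 it gave 4.34 and 4.75, inside the range of the D hearts. C + P replicate 3 was the highest array for both miRNAs.

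**Figure D1:**
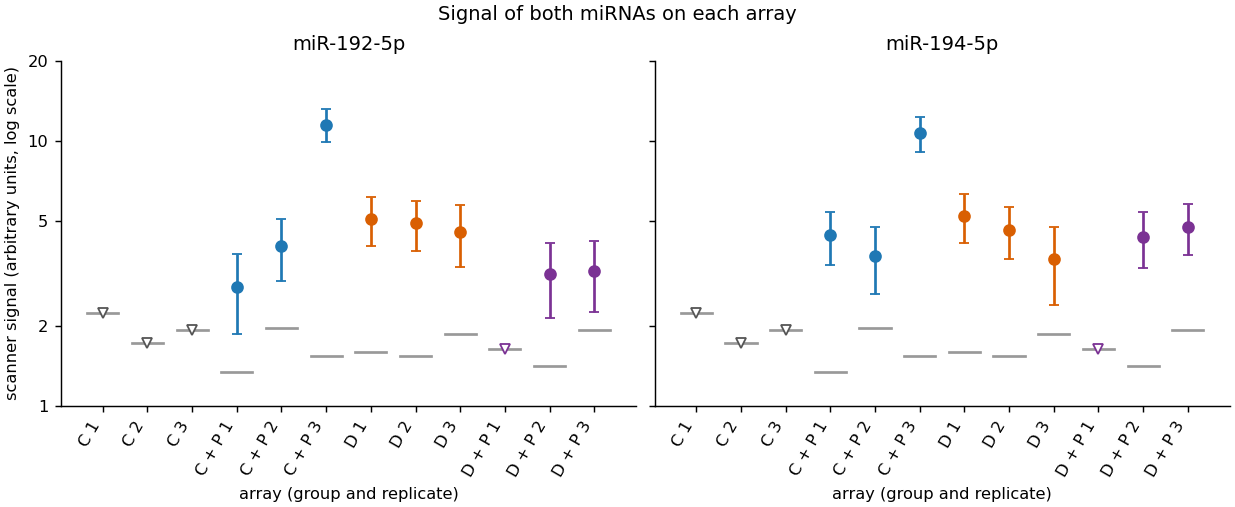
Scanner signal (arbitrary units, log scale) of miR-192-5p and miR-194-5p on each of the 12 arrays. Filled points are detected signals with the deposited error of the array, grey lines are the lowest signal detected for any miRNA on that array, and open triangles at that line mark arrays without detection: the 3 C arrays and D + P replicate 1 for both miRNAs.

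The 4 arrays without detection were the dimmest of the 12. Their summed signal of detected miRNAs was 27107 to 39661, against 48104 to 89040 on the 8 arrays with detection. The C arrays held 144 to 163 detected miRNAs, the C + P arrays 214 to 253, the D arrays 165 to 203 and the D + P arrays 187 to 218. C + P replicate 3, where both miRNAs were brightest, also had the highest summed signal. Over the 128 miRNAs detected on every array, the median scanner signal (log2) was higher by 0.77 in D than in C and by 1.15 in C + P than in C, and lower by 0.12 in D + P than in D. The part of array brightness in the detection of miR-192-5p and miR-194-5p was not tested. The groups also shared positions on the arrays: the hearts without pargyline were on 1 slide and those with pargyline on the other, so pargyline and slide cannot be told apart. C and C + P arrays were in 1 row of the slides and D and D + P arrays in the other, so diabetes and row cannot be told apart. The p-values below measure the spread between hearts within a group, pooled over the 4 groups. On arrays without detection that spread is of the values put in place of the signal, as given below, and not of the miRNA.

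**Figure D2:**
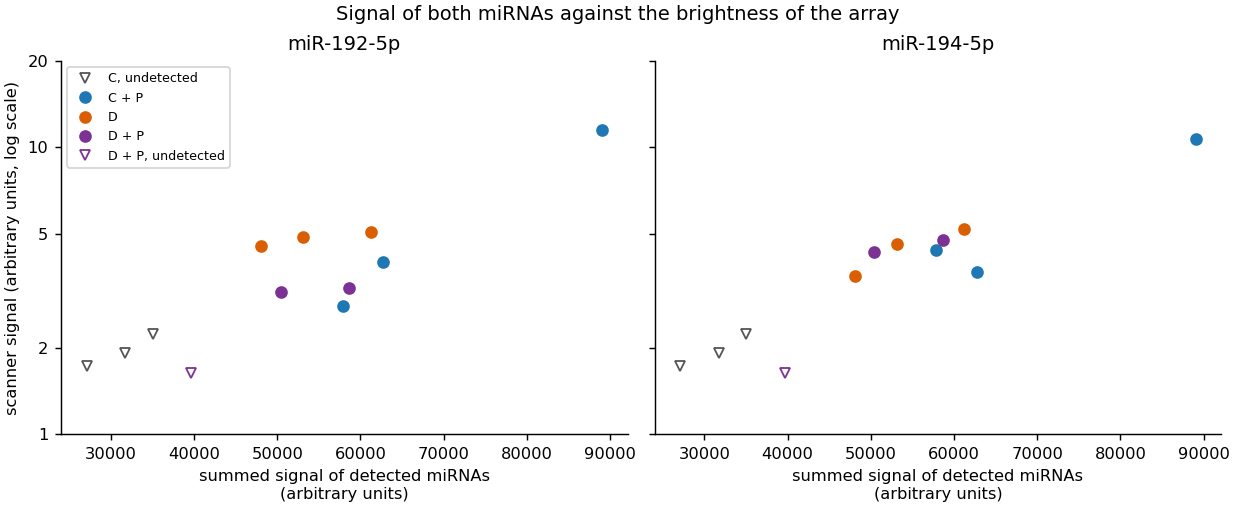
Scanner signal (arbitrary units, log scale) of each miRNA against the summed signal of all detected miRNAs on the same array (arbitrary units). The 4 open triangles, arrays without detection drawn at their lowest detected signal, have summed signals of 27107 to 39661, and all 8 filled points lie at 48104 or above.

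The same pattern of detection was found for other miRNAs. At least 1 group had 3 of 3 arrays with detection for 209 miRNAs, which were the miRNAs tested below, and 81 of them were not detected on every array. Of these 81, 46 (56.8%) were undetected in all C hearts, and 19 (23.5%) were in addition detected in all D hearts. MiR-192-5p and miR-194-5p are 2 of 14 (17.3%) with exactly this pattern over the 12 arrays. The other 12 are miR-10a-5p, miR-128-3p, miR-140-5p, miR-1839-3p, miR-193a-3p, miR-19a-3p, miR-20b-5p, miR-29c-5p, miR-301a-3p, miR-350-3p, miR-486a-3p and miR-98-5p.

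A faint signal can also be read as a part of all signal on its array. Per 100000 units of summed signal, miR-192-5p made up 8.27, 9.20 and 9.45 in the D hearts, 6.22 and 5.50 in D + P replicates 2 and 3, and 4.84, 6.38 and 12.9 in the C + P hearts. The D values were again above the D + P values, and the C + P values spanned both. MiR-194-5p made up 8.49, 8.69 and 7.43 in the D hearts, 8.60 and 8.09 in D + P replicates 2 and 3, and 7.60, 5.86 and 12.0 in the C + P hearts, so the D and D + P values of this miRNA overlapped. The lowest signal detected for any miRNA on the C arrays stands at 6.08 to 6.40 on this scale, below every D value of both miRNAs. The lowest signal at which miR-192-5p itself was ever detected, 2.80, stands at 8.0 to 10.3 on the C arrays, and that of miR-194-5p, 3.58, at 10.2 to 13.2. The D values of miR-192-5p lie inside the first of these ranges, and those of miR-194-5p below the second.

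For the comparison of groups, an undetected value was set to the lowest signal detected on its array, and the log2 values of the 209 miRNAs were normalized by cyclic loess. All normalized values below are on this log2 scale as mean ± SD (n = 3). MiR-192-5p stood at 2.46 ± 0.23 in D, 1.45 ± 0.40 in C + P and 0.93 ± 0.16 in D + P, and the value assigned in C was 1.60 ± 0.09. MiR-194-5p stood at 2.30 ± 0.16 in D, 1.59 ± 0.30 in C + P and 1.28 ± 0.45 in D + P, and the value assigned in C was 1.61 ± 0.09. The order was the same for both miRNAs, with D highest, then the assigned C value, C + P and D + P. The neighbours C and C + P overlapped for both, and C + P and D + P overlapped for miR-194-5p. The SD in C is the spread of the lowest detected signals of those arrays and not of the miRNAs.

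**Figure D3:**
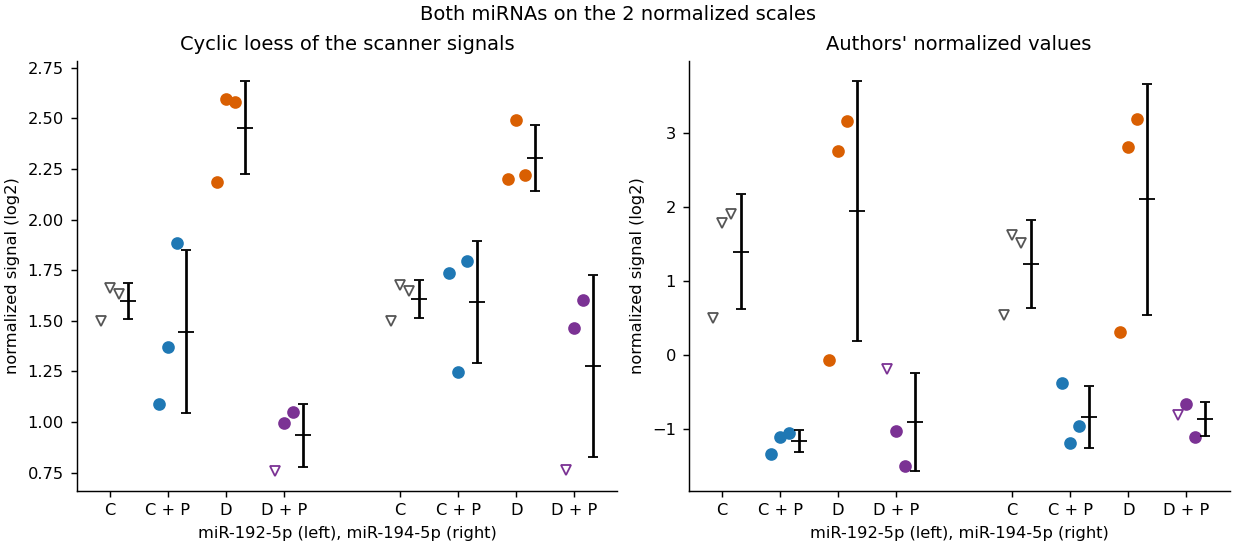
Normalized log2 signal of miR-192-5p and miR-194-5p in each heart, after cyclic loess of the scanner signals (left panel) and as deposited in the authors' normalized table (right panel). Filled points are detected, open triangles undetected, and black bars are mean ± SD of 3 hearts; D is highest after cyclic loess, while in the authors' values the D hearts spread from below to above the C hearts.

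The comparison of D with C asks which miRNAs differ in the diabetic heart. Both miRNAs were higher in D than the value assigned in C. MiR-192-5p was higher by 0.86 on the log2 scale (SE 0.21, 95% interval 0.40 to 1.31, limma adjusted p = 0.0115), or 1.81-fold over the lowest detected signals of the C arrays. MiR-194-5p was higher by 0.70 (SE 0.23, 95% interval 0.19 to 1.20, limma adjusted p = 0.0320), or 1.62-fold. The 3 D hearts lay above the 3 C hearts for both. This order is in part set by the assignment and is no separate support. The C values are the lowest detected signals of their arrays, and before normalization a detected D signal cannot fall below that of its own array. Of the 209 miRNAs, 46.9% passed the threshold in this comparison, 24.4% upward, and 34.0% had all D arrays above all C arrays, so the calls of these 2 miRNAs were shared by many others. The folds are not strict bounds, since an undetected miRNA may lie above the lowest detected signal of its array. With an undetected value set instead to the lowest signal at which that miRNA was ever detected, a setting chosen after seeing the data, the difference was 0.30 for miR-192-5p (limma adjusted p = 0.335) and -0.26 for miR-194-5p (limma adjusted p = 0.332), which turned the direction of the latter. Scaling each array to a percentile gave 0.46 (limma adjusted p = 0.164) and 0.33 (limma adjusted p = 0.301). For miR-194-5p the call was also lost without C replicate 1, 2 or 3 or D replicate 1 or 2 (limma adjusted p = 0.0835, 0.0713, 0.0792, 0.0530 and 0.102), while that of miR-192-5p held without any of the 12 arrays.

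The comparison of C + P with C asks what pargyline does without diabetes. Both miRNAs were detected in all 3 C + P hearts and in no C heart, a pattern of 43 (53.1%) of the 81 miRNAs not detected on every array. After normalization the mean of the C + P hearts nevertheless did not stand above that of the assigned C values, though single C + P hearts did. The difference was -0.15 for miR-192-5p (SE 0.21, 95% interval -0.61 to 0.31, limma adjusted p = 0.616) and -0.02 for miR-194-5p (SE 0.23, 95% interval -0.52 to 0.49, limma adjusted p = 0.957). With undetected values at the miRNA's own lowest signal, the setting chosen after seeing the data, the differences were -0.66 and -0.88, and the latter passed (limma adjusted p = 0.0777 and 0.0292). No fold is given, because the mean of the measured group lies below the limit of the undetected one. In this comparison 18.2% of the 209 miRNAs passed the threshold, 8.13% upward. Without normalization both were higher in C + P, by 1.37 (limma adjusted p = 0.0146) and 1.51 (limma adjusted p = 0.00990), where the median of the always detected miRNAs was itself higher by 1.15.

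The comparison of D + P with D asks what MAO inhibition changes in the diabetic heart. After normalization both miRNAs were lower with pargyline. MiR-192-5p was lower in D + P by a log2 difference of -1.52 (SE 0.21, 95% interval -1.98 to -1.06, limma adjusted p = 0.00187), or 2.87-fold, and no D + P heart reached a D heart. MiR-194-5p was lower by a log2 difference of -1.03 (SE 0.23, 95% interval -1.53 to -0.52, limma adjusted p = 0.0104), or 2.04-fold, again without overlap of the normalized values. On the scale of the scanner the measured signals of miR-194-5p did overlap. They were 3.58 to 5.20 in D, and 4.34 and 4.75 in D + P replicates 2 and 3. Of the 209 miRNAs, 47.8% passed in this comparison, 23.4% downward, and 29.2% had all D + P arrays below all D arrays. The undetected D + P replicate 1 did not carry the calls. With undetected values left out, the differences were -1.43 for miR-192-5p (limma adjusted p = 0.0183) and -0.77 for miR-194-5p (limma adjusted p = 0.0283). Without that array altogether they were -1.39 and -0.73 (limma adjusted p = 0.00717 and 0.0248). The calls depended on the normalization. Percentile scaling gave -0.66 for miR-192-5p and -0.18 for miR-194-5p (limma adjusted p = 0.0627 and 0.570), and no normalization gave -0.92 and -0.45 (limma adjusted p = 0.160 and 0.462).

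**Figure D4:**
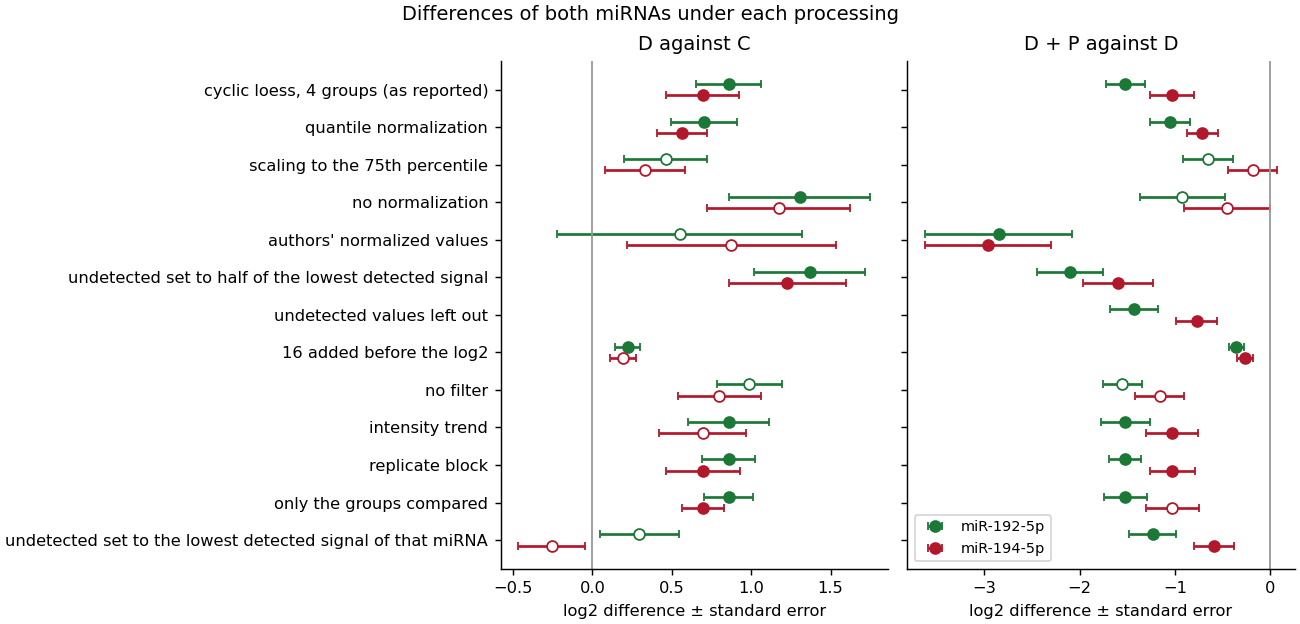
Log2 difference ± standard error of miR-192-5p and miR-194-5p for D against C (left panel) and D + P against D (right panel) under each processing, as named on the vertical axis. Filled points pass an adjusted p of 0.05; D + P against D is below 0 for both miRNAs in every processing shown, and D against C is below 0 only for miR-194-5p with undetected values at its own lowest detected signal.

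Between the pargyline groups, which lie on the same slide, diabetes was compared once more. The D + P hearts lay below the C + P hearts for miR-192-5p without overlap, but the difference of -0.51 (SE 0.21, 95% interval -0.97 to -0.06) did not pass after adjustment (limma adjusted p = 0.125). It passed only without D + P replicate 3, at -0.67 (limma adjusted p = 0.0358). For miR-194-5p the hearts overlapped and the difference was -0.32 (SE 0.23, 95% interval -0.82 to 0.19, limma adjusted p = 0.315). In this comparison 5.74% of the 209 miRNAs passed, 4.31% downward, and 17.7% had all D + P arrays below all C + P arrays.

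Whether diabetes went with a different change in the presence of pargyline was tested as an interaction. It was -1.37 for miR-192-5p (SE 0.29, 95% interval -2.01 to -0.72, limma adjusted p = 0.00674) and -1.01 for miR-194-5p (SE 0.32, 95% interval -1.73 to -0.30, limma adjusted p = 0.0216), with D above the assigned C value without pargyline and the mean of D + P below that of C + P with it. An interaction passed for 58.9% of the 209 miRNAs, with 29.2% below 0. For miR-194-5p it was lost without C + P replicate 1 or 3 or D replicate 2 (limma adjusted p = 0.0703, 0.0563 and 0.0543). It was lost for both with undetected values at the miRNA's own lowest signal, at -0.57 and 0.29 (limma adjusted p = 0.177 and 0.409).

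In the normalized table of the authors, who give each of the 209 miRNAs a value on every array, the same hearts fall in another order. On that linear scale, miR-192-5p was 1.42 to 3.77 in C, where it was undetected, and 0.399 to 0.483 in C + P, where it was detected in every heart. MiR-194-5p was 1.47 to 3.08 in C and 0.442 to 0.774 in C + P. Each undetected C heart thus stood above each detected C + P heart for both. The D hearts were split, at 0.954, 6.76 and 8.95 for miR-192-5p and 1.25, 7.01 and 9.12 for miR-194-5p, and D replicate 1 was the low one both times. The difference of D and C was 0.55 and 0.88 on the log2 scale of these values (limma adjusted p = 0.596 and 0.341). D + P stood below D by -2.85 and -2.96 (limma adjusted p = 0.0360 and 0.0153), past the threshold for both. C + P differed from C by -2.56 and -2.06 (limma adjusted p = 0.0648 and 0.0691). The study had grouped both miRNAs with others by their values on these arrays, so none of these tests is independent of that choice.

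MiR-192-5p and miR-194-5p moved together over the hearts. Their normalized values had a Pearson r of 0.874 over the 12 arrays and 0.871 over the 8 arrays with detection. These are given as a description. On the other 4 arrays both miRNAs held assigned values, and both r values include the differences between groups. Of the 208 other miRNAs tested, only miR-301a-3p (r = 0.946) and miR-193a-3p (r = 0.931) were more like miR-192-5p than miR-194-5p was, and the next were miR-151-5p (r = 0.850) and miR-106b-5p (r = 0.840). The median of all was 0.111. The miRNAs most like miR-194-5p were miR-193a-3p (r = 0.940), miR-151-5p (r = 0.891), miR-301a-3p (r = 0.886), miR-103-3p (r = 0.884) and miR-192-5p, against a median of 0.097. MiR-301a-3p and miR-193a-3p are undetected on the same 4 arrays, while miR-151-5p, miR-106b-5p and miR-103-3p were detected on all 12.

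The log2 ratio of the miR-192-5p to the miR-194-5p signal is no measure of their relative amounts, as probes differ in brightness, but its change between arrays can be read. It ran from -0.65 to 0.35 over the 8 arrays, with an SD of 0.37. The errors deposited for single arrays gave a median error of 0.55 for this ratio. By group it was 0.13 ± 0.20 in D (n = 3), -0.14 ± 0.44 in C + P (n = 3) and -0.51 ± 0.06 in D + P (n = 2). The 3 D hearts lay above both measured D + P hearts, and this difference was not tested.

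The remaining arms of the 4 hairpins were undetected on every array. These are miR-192-3p, miR-194-1-3p, miR-194-2-3p, miR-215-5p and miR-215-3p, 5 of 5. The absence of a miR-215-5p call means that no call of the seed relative accompanied that of miR-192-5p, and the absence of the 3p arms leaves the locus of miR-194-5p unknown. Of all 1881 miRNAs, 1611 were detected on no array.

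MiRNAs named together with miR-192 in the diabetic kidney were examined as a list of 11. On every array 6 of the 11 were undetected: miR-200b-3p, miR-200c-3p and miR-429-3p of the miR-200 family, which keep epithelial cells from turning mesenchymal, and miR-216a-5p, miR-217-5p and miR-377-3p. The other 5 were detected on all 12 arrays: miR-21a-5p, a miRNA of fibrosis and injury, miR-93-5p, and miR-29a-3p, miR-29b-3p and miR-29c-3p, which target collagen messages. In D against C 0 of these 5 passed in limma in either direction (0 at an unadjusted p under 0.05), where 46.9% of all 209 did, with a median difference of 0.08 beside -0.03 for all 209 miRNAs. In D + P against D 0 of 5 passed in limma (1 at an unadjusted p under 0.05), where 47.8% of all 209 did, with a median of -0.04 beside -0.11. MiR-21a-5p was lower in D + P than in C + P by a log2 difference of -0.73 (SE 0.18, limma adjusted p = 0.0495). It was the only call of the list in that comparison, where 5.74% of all 209 passed. It was also the only member with an interaction past the threshold, at -0.81 (SE 0.25), where 58.9% of all 209 passed.

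Markers of other tissues and cells were read beside these values. Of 6 cardiomyocyte miRNAs, 5 were detected on all 12 arrays (miR-1a-3p, miR-133a-3p, miR-133b-3p, miR-208a-3p and miR-499-5p), and miR-208b-3p, which belongs to a myosin gene of the fetal heart, on none. The liver markers miR-122-5p and miR-802-5p (2 of 2) and 8 of 8 epithelial markers were undetected on every array. The summed signal of the cardiomyocyte list was 3555 to 4403 in C, 7772 to 11917 in D, 9706 to 17645 in C + P and 3140 to 10022 in D + P. After normalization 1 of the 5 passed upward and 1 downward in D against C, where 46.9% of all 209 passed. The median of the list was 0.00. MiR-1a-3p was higher in D by 1.31 (limma adjusted p = 0.00612) and lower in D + P than in D by a log2 difference of -0.72 (limma adjusted p = 0.0491), and its interaction was -2.19 (limma adjusted p = 0.00365). Unlike miR-192-5p and miR-194-5p it also passed in C + P against C, at 1.47 (limma adjusted p = 0.0113), though whether it differs from them there was not tested. MiR-208a-3p was lower in D than in C by a log2 difference of -0.73 (limma adjusted p = 0.0155). MiR-1a-3p was the only call of the list in D + P against D and in C + P against C, where 47.8% and 18.2% of all 209 passed. In D + P against C + P 1 of the 5 passed, where 5.74% of all 209 did: miR-499-5p at -0.77 (limma adjusted p = 0.0495). An interaction passed for 3 of the 5, beside 58.9% of all 209: miR-1a-3p, miR-499-5p at -0.86 and miR-208a-3p at 0.82.

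Blood cell miRNAs were read as a white cell list and a red cell list. Of 5 white cell markers, all were detected on at least 1 array, and their summed signal was 12.2 to 25.8 in C, 38.4 to 60.2 in D, 78.4 to 147 in C + P and 10.4 to 60.8 in D + P. In D against C 0 of 5 passed in limma (1 at an unadjusted p under 0.05), where 46.9% of the 209 miRNAs did, with a median difference of 0.56. MiR-223-3p, a neutrophil miRNA, was the 1 member called in C + P against C, where it was higher by 1.10 (limma adjusted p = 0.0370). It was also the 1 member called in D + P against D, lower by a log2 difference of -1.15 (limma adjusted p = 0.0186). The list medians there were 0.84 and -0.88, where 18.2% and 47.8% of the 209 passed. In D + P against C + P the median was -1.04 and 1 of 5 passed, miR-223-3p, beside 5.74% of the 209. The interaction had a median of -1.45 and 3 of 5 passed, beside 58.9% of the 209. MiR-142a-5p, at -0.06 in D against C, had the sign opposite to the list median there. Apart from this value, all 5 members had the sign of the median wherever one is given above.

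Of 5 red cell markers, 4 were detected on at least 1 array, with sums of 499 to 508 in C, 765 to 977 in D, 771 to 1538 in C + P and 366 to 908 in D + P. In D against C 1 of these 4 passed upward and 1 downward, where 46.9% of all 209 miRNAs passed, and the median of the list was -0.13. The upward one was miR-486a-3p, from the hairpin of an erythroid miRNA, which had the detection pattern of miR-192-5p and miR-194-5p and was higher than the assigned C value by 1.21 (SE 0.35, limma adjusted p = 0.0197). MiR-144-3p was lower in D than in C by a log2 difference of -0.54 (limma adjusted p = 0.0456), and the differences of miR-486a-5p and miR-451a were -0.22 and -0.03. In D + P against D 1 of 4 passed, where 47.8% of all 209 did. This was miR-486a-3p with -1.31 (SE 0.35, limma adjusted p = 0.0186), beside 0.45 for miR-144-3p, 0.15 for miR-486a-5p and -0.34 for miR-451a. In C + P against C 1 of 4 passed, where 18.2% of all 209 did: miR-486a-5p at -0.83 (limma adjusted p = 0.0312). An interaction passed for 3 of 4, beside 58.9% of all 209: miR-486a-3p at -1.56, miR-144-3p at 0.87 and miR-486a-5p at 0.97. The part of blood cells in the signal of miR-192-5p and miR-194-5p was not tested, and in whole tissue fewer cells of a type and less RNA per cell cannot be told apart.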

How the data were processed

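Small RNA from 12 hearts was measured on Agilent 1-colour mouse miRNA arrays. The authors deposited for each array the scanner software's intensity of 1881 miRNAs (the total gene signal), its error and a detection flag, with no normalization between arrays and with 0.1 in place of an undetected signal. The authors also deposited normalized intensities on a linear scale. The methods describe a filter on detection followed by cyclic loess, but these intensities include both miRNAs on arrays where they were undetected. The methods give a different mass of total RNA per labeling than the 200 ng of the sample records. The extraction text of the records speaks of macrophages, while tissue and titles give heart.

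MiR-192-5p and miR-194-5p were taken by name. The members, the lists and the tests were chosen with earlier results of these data known. The named miRNAs are these 2, the other arms of their hairpins, miRNAs with the same seed, a list of 11 miRNAs from the diabetic kidney literature, cell type markers and, for each of the 2, up to 5 miRNAs with the most similar pattern. The 12 miRNAs with the same detection were named after their values had been seen.

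A miRNA was tested if 1 group or more had it detected on each of its 3 arrays, which left 209. The methods' filter, with no undetected value allowed, leaves 128 miRNAs and neither of these 2. Undetected values took the lowest signal detected on the same array. The log2 values went through cyclic loess with a span of 0.7 and 3 iterations in limma 3.58.1 (R 4.3.3). Means of 4 groups were fitted over 12 arrays with lmFit and eBayes. P-values are two-sided, adjusted after Benjamini and Hochberg over the 209, and called under 0.05. The fit was tested on simulated normalized values. These held no undetected values and were not put through cyclic loess, so that test does not cover either step. Sequences are from RefSeq. No column of per-sample values was left unused (0), and the number of arrays limits the precision. The alternatives were other normalizations, filters, values for undetected miRNAs, tests, the replicate number as a block and each array left out in turn. The lowest detected signal of the miRNA itself was chosen after seeing the data. The mRNA arrays of the study were not analysed here.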

Additional observations from a re-analysis of the deposited data

Results flagged for a closer look

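The test of whether the change with pargyline differs between diabetic and control hearts passed for both miRNAs, with the C arrays at an assigned value. The interaction was -1.37 on the log2 scale for miR-192-5p and -1.01 for miR-194-5p (limma adjusted p = 0.00674 and 0.0216), with an interaction called for 58.9% of the 209 miRNAs tested. Its C arm is the lowest detected signal of each C array and not a measured level. With the lowest signal at which each miRNA was ever detected in its place, the interaction was -0.57 and 0.29 (limma adjusted p = 0.177 and 0.409).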

How the results depend on the processing

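Values are log2 differences, for miR-192-5p and then miR-194-5p. D against C was no longer past the threshold with percentile scaling (0.46, 0.33), the authors' values (0.55, 0.88), no filter (0.99, 0.80), the methods' t-test with Holm (0.86, 0.70) and the own lowest signal (0.30, and -0.26 for miR-194-5p), nor for miR-192-5p by that test with Benjamini-Hochberg (0.86), nor for miR-194-5p without normalization (1.17), with 16 added before the log2 (0.19) or with an intensity trend (0.70). Percentile scaling (0.28, 0.41), no normalization (1.37, 1.51) and no filter (0.070, 0.092) turned C + P against C upward, as did, for miR-194-5p, undetected values at 0.5 times the lowest signal (0.15) and 16 added (0.0051), while its own lowest signal gave -0.88, now past the threshold. D + P against D was lost with percentile scaling (-0.66, -0.18), no normalization (-0.92, -0.45), no filter (-1.55, -1.16) and the methods' t-test with either adjustment (-1.52, -1.03), and for miR-194-5p in a fit of only the groups compared (-1.03). D + P against C + P turned upward in the authors' values for miR-192-5p (0.26) and with its own lowest signal for miR-194-5p (0.033). The interaction was lost with percentile scaling (-0.93, -0.60), the authors' values (-0.29, -0.90), no filter (-1.62, -1.25) and the own lowest signal (-0.57, 0.29), and for miR-194-5p with 16 added (-0.27). The cause was not tested; no filter raises the number of miRNAs tested to 1881.

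With 1 array left out, D against C ranged from 0.77 to 0.99 and from 0.59 to 0.75, C + P against C from -0.37 to 0.11 and from -0.12 to 0.21, D + P against D from -1.64 to -1.35 and from -1.23 to -0.73, D + P against C + P from -0.67 to -0.28 and from -0.57 to -0.08, and the interaction from -1.56 to -1.14 and from -1.31 to -0.77. The values of C + P against C above 0 came without C + P replicate 1 for miR-192-5p, and without C replicate 2 or 3, C + P replicate 2, D replicate 3 or D + P replicate 1 or 3 for miR-194-5p. The counts of miRNAs past the threshold ranged from 36 to 120 for D against C, 3 to 102 for C + P against C, 27 to 146 for D + P against D, 1 to 107 for D + P against C + P and 100 to 152 for the interaction, beside 98, 38, 100, 12 and 123 with all arrays. Over other settings the counts were, for D against C, 30 (authors' values), 5 (no filter), 64 (detected on all 12 arrays), 1 (t-test with Holm) and 37 (t-test with Benjamini-Hochberg). For C + P against C they were 166 (no normalization), 6 (authors' values), 62 (16 added), 4 (no filter), 4 (replicate block), 108 (only the groups compared) and 1 (Holm). For D + P against D they were 63 (quantile), 32 (no normalization), 33 (authors' values), 4 (only the groups compared) and 0 with limma and no filter (128 at an unadjusted p under 0.05) and with the t-test under either adjustment (28). For D + P against C + P they were 2 (percentile scaling), 2 (no normalization), 2 (0.5 times the lowest signal), 7 (undetected values left out), 28 (16 added), 1 (replicate block), 1 (only the groups compared) and 0 with limma on the authors' values (41 at an unadjusted p under 0.05), with no filter (69) and with the t-test (16). For the interaction they were 61 (authors' values) and 2 (no filter).

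With the replicate number as a block, no call of the 2 miRNAs changed: D against C was 0.86 and 0.70 (limma adjusted p = 0.0104 and 0.0432), and D + P against D was -1.52 and -1.03 (limma adjusted p = 0.00164 and 0.0180). Deviations of same-numbered hearts of different groups correlated with r from -0.33 to 0.22 over 18 pairs. Over 36 pairs with different numbers r ran from -0.50 to 0.53. No pairing by number was seen, but such correlations cannot show whether the animals were matched. A requirement of a signal above 3 times its error kept detection at 8 arrays for both miRNAs. This could not have come out otherwise, since no detected value of any miRNA had a ratio below 3.00, so it is no check of detection. No value for these miRNAs can be had from the filter of detection on all arrays, and D against C, C + P against C and the interaction have none with undetected values left out.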

Other observations

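The 12 other miRNAs that shared the detection pattern of miR-192-5p and miR-194-5p had median detected signals of 4.06 to 16.1. Their median difference in D against C was 1.33 on the log2 scale, with 10 of 12 past the threshold upward (24.4% of all 209 miRNAs), and their D + P hearts differed from D by a median of -1.25, where 8 of 12 passed downward (23.4% of all 209), beside medians of -0.03 and -0.11 for all 209 miRNAs. Both counts were shaped by the choice of these 12 as undetected in C and in D + P replicate 1 and detected in every D heart. In C + P against C their median was 0.74 with 3 of 12 past the threshold upward (8.13% of all 209). This count was shaped by the choice as well, since all 12 were undetected in C and detected in every C + P heart.

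In the authors' normalized values, 4 of these 12 miRNAs had every undetected C heart above every detected C + P heart, as did miR-192-5p and miR-194-5p. This order was found for 27 of the 43 miRNAs that no C heart and every C + P heart showed.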
